A study of Drosophila melanogaster with 55 samples.

Results

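RNA on repeats was compared between embryos labelled with the F578A allele of SetDB1 and embryos labelled with wild-type SetDB1 (WT). The comparison takes in 6 of the 55 samples of the series, chosen by their titles, and every row of their tables, which hold 9263 repeat names. Each library came from the total RNA of a single Drosophila melanogaster embryo at stage 5, the cellular blastoderm, when the zygotic genome is switched on. The 3 F578A embryos have a genotype label of SetDB1 F578A over CyO, and the 3 WT embryos one of SetDB1 WT. The label does not say whether the embryos themselves or only their parents had that genotype. How many copies of F578A or of wild-type SetDB1 an F578A embryo carried is therefore not known. CyO is a balancer form of the second chromosome that suppresses recombination. The WT label does not carry it, so the point mutation and the balancer chromosome, with the transposon insertions that each may hold, cannot be told apart. The labels do not say whether the embryos of a group had the same parents, or what a replicate number stands for, so p-values measure the spread between these embryos. The series also holds 3 RNA libraries of a Gcn5 knockdown and 3 of a control knockdown, of the white gene (w) for eye colour. All 6 of those embryos carry GFP-SetDB1 and the germline driver nos-Gal4, and they enter only where named.

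SetDB1, called Eggless in flies, is a histone methyltransferase that trimethylates lysine 9 of histone H3, a mark of silent chromatin on transposable elements and other repeats. In the fly ovary it acts downstream of small RNAs that recognise transposon transcripts, and in the early embryo it takes part in the first build-up of heterochromatin. F578A puts alanine in place of a phenylalanine. LTR retrotransposons move through an RNA copy and consist of an internal part, which encodes the proteins, between identical long terminal repeats (LTRs). LINEs also move through RNA but have no LTRs, and DNA transposons move by excision. The rest of the repeats here are simple repeats, short units in tandem whose name is the sequence of the unit, read 5′ to 3′. The simple-repeat names that the results turn on are (ATCTAC)n and, on the other side, (GTGTACT)n, as well as (CCGGCT)n and then (GCCCTC)n, shown because they had the smallest p among simple repeats. The names were annotated as 208 transposable elements, 9028 simple repeats, 6 low-complexity repeats, 6 satellites, 4 rRNA names and 11 others.

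The F578A libraries held 2.86, 3.02 and 3.13 M counts on repeats and the WT libraries 2.42, 3.21 and 2.54 M. No gene was counted, so neither the level of SetDB1 nor markers of the embryo could be checked. Simple repeats took between 83.3% and 85.8% of a library. Transposable elements took 5.93%, 5.0% and 3.97% in F578A, against 4.66%, 3.31% and 4.01% in WT, and replicate 3 of F578A lay inside the range of WT. The means were 4.96% ± 0.979 in F578A and 3.99% ± 0.677 in WT (SD, n = 3 each), with p = 0.3 in a two-sided exact permutation test whose smallest possible p is 0.1. rRNA ran in the opposite order within F578A, at 0.814%, 1.26% and 2.28%, against 2.97%, 1.63% and 1.35% in WT. The part of rRNA depletion or RNA quality in these differences was not tested.

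**Figure D1:**
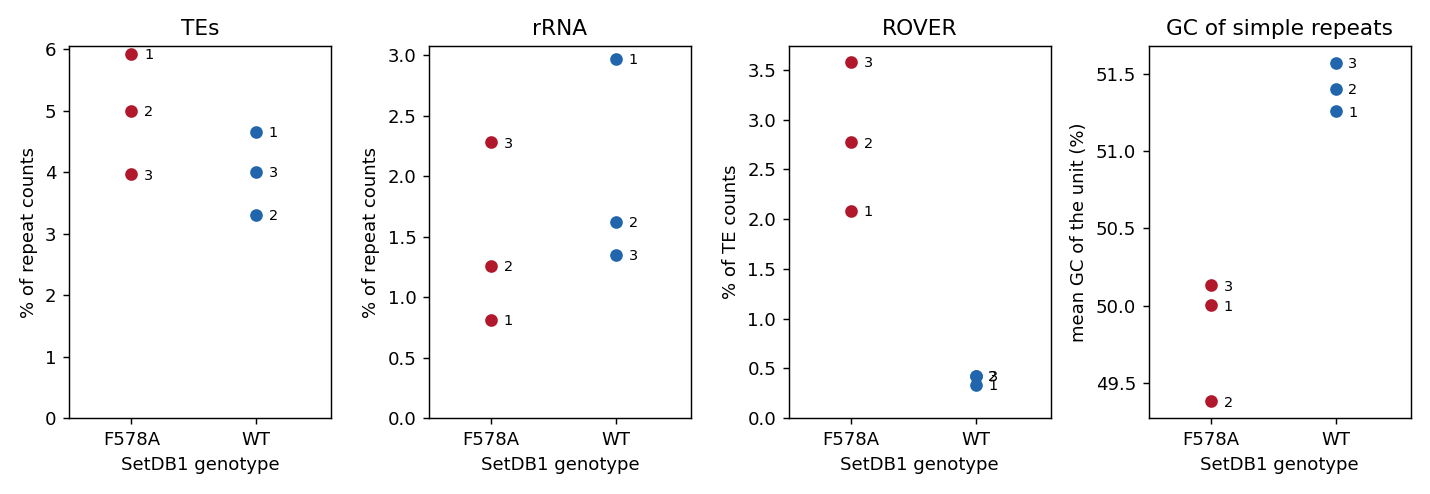
Values of each library (numbers are replicates) for SetDB1 F578A (red, left) and WT (blue, right), 3 libraries each. From left: transposable elements (TEs) and rRNA as a percent of all repeat counts, ROVER as a percent of TE counts, and the mean GC percent of the simple-repeat units weighted by counts (axis not starting at 0). TE and rRNA shares overlap between genotypes, whereas ROVER and the GC of simple repeats do not.

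One retrotransposon rose in F578A embryos. ROVER-I_DM is the internal part of rover, an LTR element of the Gypsy family whose relatives include gypsy and ZAM. It stood at 1130, 1343 and 1414 CPM in the F578A libraries, against 151, 148 and 169.5 CPM in the WT libraries. CPM here relate the counts of a name to all repeat counts of the library after TMM scaling, in parts per 1e6. All F578A libraries lay far above all WT libraries, with means of 1296 ± 148 CPM in F578A and 156 ± 11.5 CPM in WT (SD, n = 3 each). The log2 fold change, here always of F578A over WT, was 3.05 (SE 0.138, edgeR quasi-likelihood test with Benjamini-Hochberg adjustment, adjusted p = 7.8e-05). Of 2395 names tested it was the 1 name called higher, or 0.0418%, and 0 were called lower (0%). At an unadjusted p under 0.05 there were 52 higher and 77 lower of the 2395. A share of 0.05 would fall under that threshold with no difference at all. In a whole embryo, more RNA per cell and more cells with the RNA cannot be told apart.

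The order of the libraries for ROVER was not that of transposable elements as a whole. Among the F578A libraries, ROVER-I_DM was lowest in replicate 1, which had the highest share of transposable elements, and highest in replicate 3, which had the lowest. Both parts of ROVER together made up 2.08%, 2.77% and 3.58% of the transposable-element counts in F578A, against 0.337%, 0.428% and 0.428% in WT. Without ROVER the share of transposable elements in all repeat counts was 4.83% ± 0.988 in F578A and 3.98% ± 0.676 in WT (SD, n = 3 each, exact permutation p = 0.3). Per kilobase of annotated sequence, ROVER-I_DM stood at 5.26 CPM in F578A and 0.635 CPM in WT. That was rank 22 in F578A and rank 87 in WT among the 177 transposable-element names tested. The order of all 177 was otherwise alike, with a rank correlation of 0.946 between the mean levels per kilobase of the genotypes. BLOOD_I-int, among the highest per kilobase, had 19.8 CPM in F578A and 17.02 CPM in WT. The annotated length sums all copies, silent ones included, so a level per kilobase is an average over copies.

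The long terminal repeat of the same element, ROVER-LTR_DM, was far less abundant, at 11.97, 21.2 and 16.8 CPM in F578A and 5.77, 2.32 and 6.46 CPM in WT. Its libraries did not overlap between genotypes either, but the log2 fold change of 1.79 (SE 0.486) did not pass (edgeR adjusted p = 0.463). Counted together as 1 element, ROVER rose by 3.03 on the log2 scale (edgeR adjusted p = 6.7e-05, SE 0.139). It was the 1 element or repeat class called higher of 893 tested, 0.112%, with 0 called lower (0%). At an unadjusted p under 0.05, 22 of the 893 were higher and 31 lower, where a share of 0.05 would fall with no difference. These 893 combined each LTR with its internal part, and each simple-repeat unit with its rotations and its complement.

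ROVER-I_DM in the other RNA libraries of the series gives a further scale. Scaled over all 12 libraries, embryos of the Gcn5 knockdown held 137, 42.9 and 58.7 CPM, against 23.3, 24.2 and 32.7 CPM in those of the w knockdown. The 3 F578A libraries, at 1119, 1328 and 1397 CPM on that scale, lay above every other library, and the WT libraries (150.0, 146 and 168 CPM) lay above the w knockdown and the Gcn5 knockdown. Its change in F578A was larger than in the Gcn5 knockdown by 1.48 on the log2 scale (SE 0.475), which did not pass (edgeR adjusted p = 0.619). Without replicate 1 of the Gcn5 knockdown, the difference was 2.10 and passed (edgeR adjusted p = 0.03). That library was the highest of its group, so leaving it out widens the difference. With any other single library left out it did not pass.

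**Figure D2:**
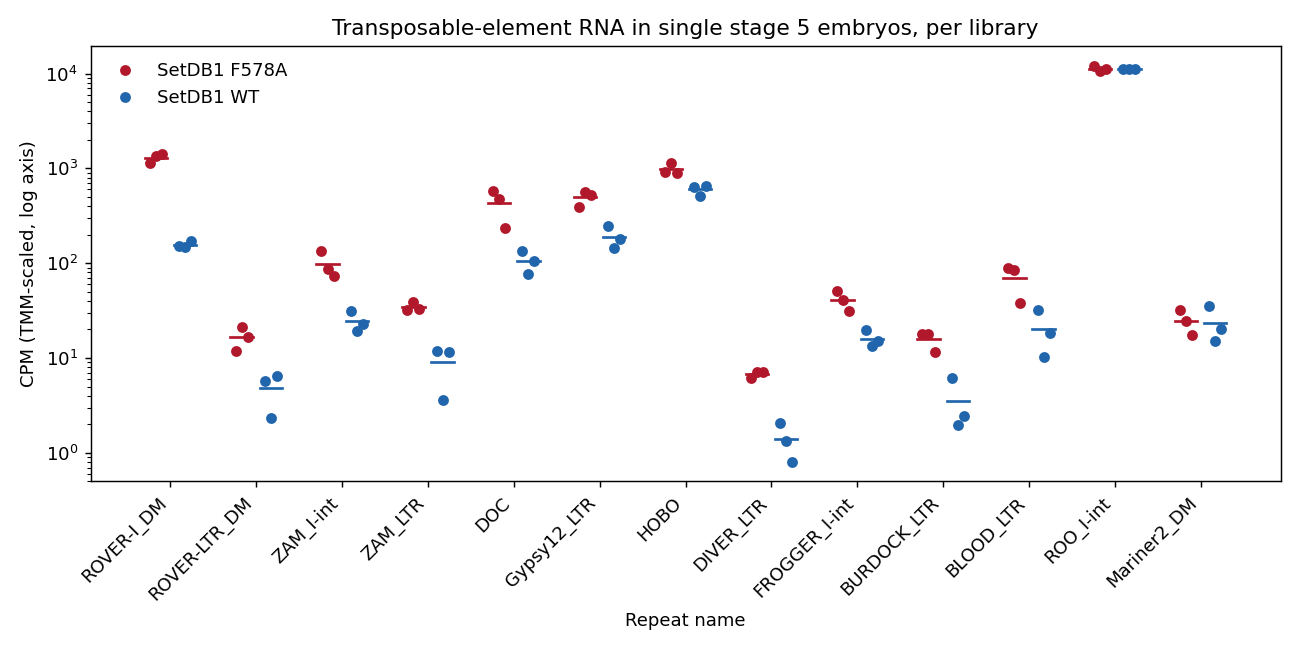
CPM (log axis) of named transposable elements in each library, F578A (red, left of each pair) and WT (blue, right), with short lines at the means of 3 libraries. ROVER-I_DM at 1130 to 1414 CPM in F578A and 148 to 169.5 CPM in WT is the one that passed the edgeR test. ROO_I-int and Mariner2_DM overlap between genotypes.

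Further transposable elements had all F578A libraries above all WT libraries without passing the edgeR test. Of the 177 transposable-element names tested, 18 had no overlap and lay higher, ROVER-I_DM among them (10.2%), against 122 of all 2395 names (5.09%). In the opposite direction 6 lay below, where 173 of all names did (7.22%). The 18 names belong to 15 elements, since some are parts of 1 element, and related copies can share reads. DESeq2, run on the same 2395 names, called 19 higher and 10 lower. Those higher were 9 LTR names, 1 LINE (DOC), 1 DNA element (HOBO) and 8 simple repeats, and all 10 lower were simple repeats. The LTR names were ROVER-I_DM, ROVER-LTR_DM, ZAM_I-int, ZAM_LTR, Gypsy12_LTR, BURDOCK_LTR, BURDOCK_I-int, BLOOD_LTR and FROGGER_I-int.

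Among the Gypsy-family elements with an envelope gene, ZAM came next to ROVER. Its internal part ZAM_I-int had 135, 86.3 and 72.5 CPM in F578A, against 31.3, 19.2 and 22.6 CPM in WT. All F578A libraries lay above all WT libraries, with 2.01 as log2 fold change (edgeR adjusted p = 0.136, SE 0.328, DESeq2 adjusted p = 3.7e-06). ZAM_LTR had 32.3, 38.6 and 33.2 CPM in F578A and 11.96, 3.64 and 11.7 CPM in WT, a log2 fold change of 1.94 (adjusted p = 0.36, SE 0.461). Both parts of ZAM had similar log2 fold changes. Of the 23 tested names of this group, 19 had log2 fold changes above 0 (median 0.55, against 0.02 over all names). Only 1 passed the edgeR test, ROVER-I_DM. The set ran from -0.41 to 3.05. Gypsy_I-int, the internal part of gypsy itself, had 0.55, QUASIMODO_I-int 0.77 and TIRANT_I-int 0.65, while IDEFIX_I-int had -0.08 and NOMAD_I-int -0.24, with adjusted p between 0.897 and 0.973.

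Among other Gypsy-family elements, Gypsy12, BURDOCK and BLOOD had larger log2 fold changes in the LTR than in the internal part, while ACCORD had the larger one in the internal part (0.93 for ACCORD_I-int and 0.11 for ACCORD_LTR). Gypsy12_LTR had 390.4, 569.9 and 519 CPM in F578A, against 247, 146 and 180.0 CPM in WT (log2 fold change 1.37, edgeR adjusted p = 0.14, SE 0.235). Its internal part Gypsy12_I-int overlapped between genotypes, with 96.4, 83.3 and 42.5 CPM in F578A and 81.2, 36.7 and 63.4 CPM in WT. BURDOCK_LTR stood at 17.8, 18.0 and 11.6 CPM in F578A and 6.19, 1.98 and 2.42 CPM in WT (2.16, adjusted p = 0.36, SE 0.524). BURDOCK_I-int also separated the genotypes, at 54.99, 46.1 and 45.1 CPM in F578A and 25.6, 25.1 and 29.9 CPM in WT (0.86, adjusted p = 0.571, SE 0.248). BLOOD, a relative of DM412 and mdg1, also had the larger value in its LTR. BLOOD_LTR had 89.0, 84.6 and 38.0 CPM in F578A and 32.2, 10.3 and 18.2 CPM in WT (1.81, adjusted p = 0.463, SE 0.495), whereas the far more abundant BLOOD_I-int had 4662, 4464 and 3391 CPM in F578A and 4045, 3260 and 3432 CPM in WT (0.22, adjusted p = 0.93, SE 0.14).

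By list, the group of DM412 and mdg1 had 8 of 9 positive (median 0.30), the numbered Gypsy elements 15 of 21 (0.15), other Gypsy-family names 20 of 23 (0.38) and the mdg3 group 3 of 6 (-0.01). None of these names passed the edgeR test. BLASTOPIA_I-int of the mdg3 group, at 1756, 1163 and 610.4 CPM in F578A and 1733, 617 and 1287 CPM in WT, varied more within each genotype than between them. HMSBEAGLE_I-int, the most abundant of the other Gypsy-family names, had a log2 fold change of -0.11 and MDG3_LTR one of -0.18.

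**Figure D3:**
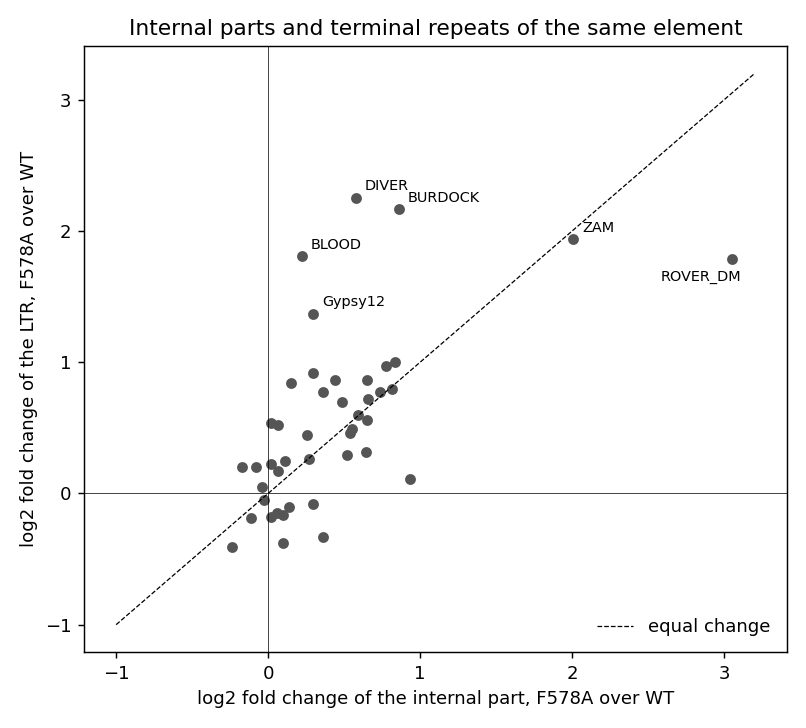
Log2 fold changes (F578A over WT) of the LTR against those of the internal part of the same element, for 44 elements with both parts tested; the dashed line marks equal change. ZAM lies near the line, ROVER_DM below it, and DIVER, BURDOCK, BLOOD and Gypsy12 above it, with a larger difference in the LTR. Distances from the line were not tested, and some LTRs had few counts.

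Both parts were tested for 44 LTR elements. Both log2 fold changes were positive in 31, both negative in 3 and opposite in 10. The correlation between the parts was 0.609 (rank correlation 0.662, n = 44), and the points share their libraries. The median absolute difference between the parts was 0.21. The elements farthest from equal change were DIVER, BLOOD, BURDOCK and Gypsy12 with the LTR higher, and ROVER with the internal part higher. Some of these LTRs had few counts. DIVER_LTR had 19, 22 and 22 counts in F578A and 5, 4 and 2 in WT (SE 0.498). BURDOCK_LTR had 55, 55 and 36 counts in F578A and 15, 6 and 6 in WT (SE 0.524). The difference between the parts of an element was not tested.

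Elements of the Pao and Copia families, the other LTR families, gave the following. DIVER_LTR was at 6.15, 7.19 and 7.09 CPM in F578A and 2.06, 1.32 and 0.807 CPM in WT, or 2.25 as log2 fold change (edgeR adjusted p = 0.303, SE 0.498). DIVER_I-int overlapped, at 221, 180.1 and 119 CPM in F578A and 182, 65.2 and 102.5 CPM in WT (0.58). ROO_I-int of the Pao family was the most abundant transposable element, with 12094, 10716 and 11053 CPM in F578A and 11117, 11045 and 11204 CPM in WT. Its log2 fold change was 0.02 (SE 0.0662). In the Copia family all 9 names tested were positive (median 0.73, lowest 0.48), and none passed the edgeR test. FROGGER_I-int had 50.5, 40.5 and 30.9 CPM in F578A and 19.8, 13.2 and 14.9 CPM in WT (1.35, adjusted p = 0.36, SE 0.322), and was the 1 Copia name without overlap. FROGGER_LTR was too low to test, with 3, 2 and 1 counts in F578A and 0, 1 and 0 counts in WT. Copia_I-int, at 2212, 1645 and 801 CPM in F578A and 1209, 475 and 924 CPM in WT, and DM1731_I-int, at 2684, 1720 and 948 CPM in F578A and 1876, 669 and 1283 CPM in WT, overlapped widely. The Pao family had 10 of 15 positive (median 0.36).

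LINEs were led by DOC, a Jockey-group element. DOC had 573, 475 and 234 CPM in F578A, against 136, 77.7 and 106 CPM in WT. Replicate 3 of F578A was the lowest of its group and still above every WT library. The log2 fold change was 2.01 (edgeR adjusted p = 0.151, SE 0.356). Without replicate 3 of F578A, the one nearest to WT, it was 2.28 and passed (edgeR adjusted p = 0.0138). With any other single library left out it did not pass. DOC also passed with DESeq2 (adjusted p = 3.9e-05). The Jockey-group list was made by the start of names, and takes in the DMRT1 names and Baggins1 but not Jockey2. In that list 23 of 26 names were positive (median 0.22) and none passed the edgeR test with all libraries. DMCR1A, its most abundant name, had 0.06. In the R1, R2 and I elements, which include LINEs that insert into ribosomal RNA genes, 4 of 5 were positive (median 0.35). I_DM had 228, 209 and 109.6 CPM in F578A and 157, 74.4 and 110.2 CPM in WT (0.68, adjusted p = 0.911).

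The telomeres of Drosophila are built of HETA, TART and TAHRE in place of telomerase repeats. HETA had 133, 196 and 231 CPM in F578A and 119, 152 and 119.5 CPM in WT (log2 fold change 0.52, edgeR adjusted p = 0.897, SE 0.24). TART had 1340.4, 1590 and 1824 CPM in F578A and 1636, 2032 and 1849 CPM in WT (-0.21, adjusted p = 0.93, SE 0.138). TAHRE had 0.50 and TART_B1 -0.16, so 2 of 4 telomere names were positive (median 0.17), and all overlapped between genotypes.

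Among DNA transposons HOBO, of the hAT superfamily, separated the genotypes. It had 919, 1151 and 898 CPM in F578A, against 637, 511 and 652 CPM in WT, or 0.72 as log2 fold change (edgeR adjusted p = 0.28, SE 0.15, DESeq2 adjusted p = 0.0162). Its list, with P, PROTOP and Transib elements, had 11 of 13 positive (median 0.35) and none passed the edgeR test. The Tc1-mariner and pogo list had 8 of 10 positive (median 0.17). In it POGO had 391, 752 and 809 CPM in F578A and 472, 577 and 611 CPM in WT (0.23). POGON1 lay lower in every F578A library, at 72.1, 75.5 and 51.2 CPM in F578A and 110, 92.3 and 86.0 CPM in WT (-0.53, adjusted p = 0.897, SE 0.232). With transposable elements fitted alone, which lowers all of them together, POGON1 had -0.85 and passed (edgeR adjusted p = 0.0326). So did DMLTR5, an LTR name with 3.88, 3.27 and 1.61 CPM in F578A and 9.90, 6.62 and 8.47 CPM in WT. DMLTR5 had -1.80 in that fit (edgeR adjusted p = 0.0205) and -1.49 among all names (adjusted p = 0.679). DNAREP1_DM, the INE-1 element with its many short copies, had 4396, 4119 and 2963 CPM in F578A and 3832, 2654 and 3199 CPM in WT (0.24, adjusted p = 0.93, SE 0.18). Both tested names of its list, with Helitron and foldback elements, were positive (median 0.21).

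**Figure D4:**
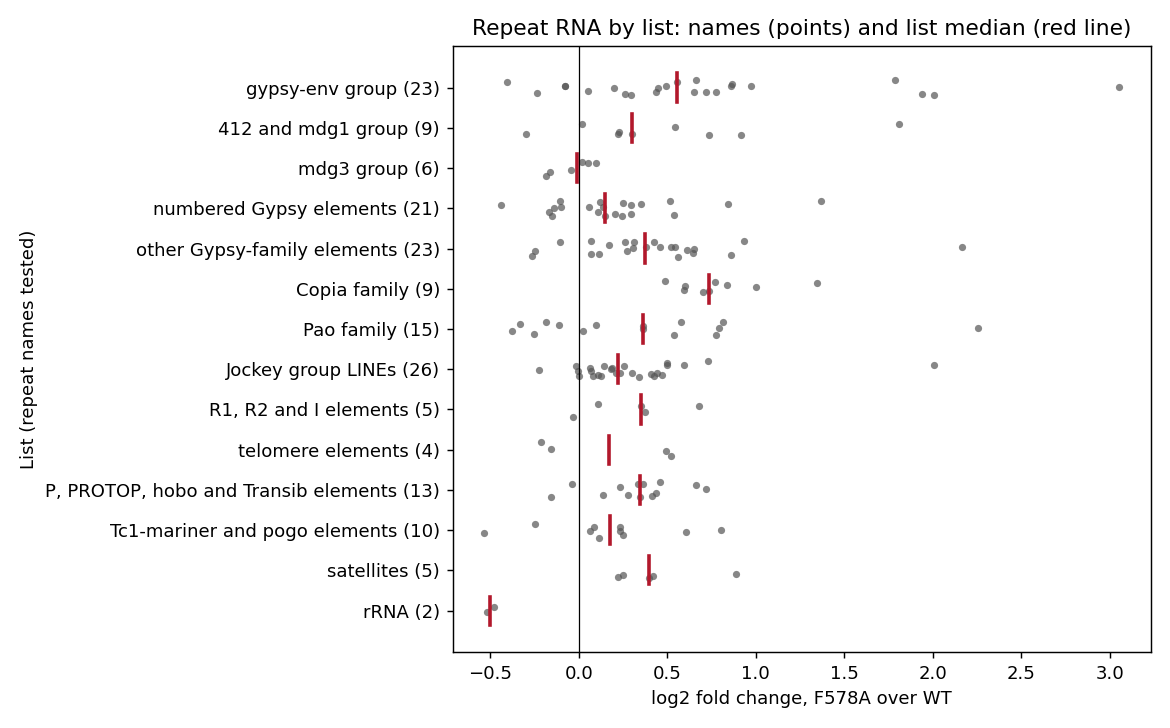
Log2 fold change (F578A over WT) of tested names of transposable elements, satellites and rRNA (grey points), by list, with the list median as a red line. The number of names tested is in parentheses. Medians lie from -0.50 (rRNA) to 0.73 (Copia family), and the point farthest right is ROVER-I_DM at 3.05. Simple and low-complexity repeats are not shown, nor is the list of INE-1, Helitron and foldback elements. Transposable-element names in no list are also left out, among them DMLTR5 at -1.49.

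Over all transposable elements, 141 of 177 names had a positive log2 fold change (79.7%, median 0.28), against 1259 of all 2395 (52.6%, median 0.02). By class these were 89 of 114 LTR names (median 0.30), 30 of 36 LINE names (0.24) and 21 of 26 DNA names (0.24), with TLD2, a name of no assigned class, at 0.44. The count was not the same in every set of libraries: it ranged from 113 of 177 (median 0.12) without replicate 2 of WT to 156 (0.50) without replicate 1 of WT. Without replicate 1 of F578A the median was 0.16, and without its replicate 3 it was 0.44. RLE scaling gave 142 of 177 (0.29), and scaling by total counts gave 150 (0.36) with the median of all names at 0.105. With transposable elements fitted alone, 90 of 177 were positive (median 0.01), but that fit centres them on themselves and cannot show a shift common to them. Within genotypes, 80.2% of the variance of the 177 names lay along 1 axis, on which replicate 1 of F578A and replicate 1 of WT stood at one end and replicate 3 of F578A and replicate 2 of WT at the other. Those replicates also had the highest and the lowest shares of transposable elements of their genotype. Of the remaining 31 transposable-element names, 5 had no counts at all and none had more than 69 counts over the 6 libraries.

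Satellites, the tandem repeats of heterochromatin, had 5 of 5 tested names positive (median 0.40), all with overlap between genotypes. SAR2_DM had 489.7, 472 and 305 CPM in F578A and 355, 258 and 349 CPM in WT (log2 fold change 0.40, edgeR adjusted p = 0.93, SE 0.22). rRNA names had a median of -0.50 (0 of 2 positive). SSU-rRNA_Dme stood at 3964, 6558 and 12568 CPM in F578A and 16368, 9188 and 7527 CPM in WT, a spread within each genotype larger than the difference between them.

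Simple repeats, read one name at a time, split evenly: 1108 of 2200 names were positive (median 0.00) and none passed the edgeR test. They are 2200 of the 2395 names on which TMM scaling was set, which itself places their centre near 0. The even split therefore cannot show whether they shifted together. With scaling by total counts their median was 0.083. The name with the smallest p, (ATCTAC)n, had 22.6, 38.2 and 37.7 CPM in F578A and 5.36, 4.96 and 4.84 CPM in WT (log2 fold change 2.69, edgeR adjusted p = 0.111, SE 0.363). It is annotated over only 32 bases, so its counts come from 1 or very few places in the genome. With the other rotations and the complement of the unit the log2 fold change was 1.08 (SE 0.36). (GTGTACT)n, annotated over 40 bases, went the other way, with 14.9, 15.4 and 40.6 CPM in F578A and 117, 156 and 169 CPM in WT (-2.64, adjusted p = 0.136, SE 0.428). Replicate 3 of F578A was the highest of its group. Without that library, the one nearest to WT, (GTGTACT)n had -3.30 and passed (adjusted p = 0.0054). With any other single library left out it did not pass. Both (GTGTACT)n and (ATCTAC)n passed with DESeq2 (adjusted p = 2.4e-06 and 7.0e-08). Both also passed with no filter on low counts, with a replicate block and over all 12 libraries. Neither passed with RLE or total-count scaling or without rRNA.

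A similar separation held for (CCGGCT)n, over 86 bases, with 226, 197 and 229 CPM in F578A and 387, 460.2 and 410.4 CPM in WT (-0.95, edgeR adjusted p = 0.136, SE 0.142). Its 9 rotations and complements together had -0.35 (SE 0.109). (GCCCTC)n, over 41 bases, had 2.91, 1.96 and 1.93 CPM in F578A and 16.1, 17.9 and 10.9 CPM in WT (-2.70, adjusted p = 0.136, SE 0.431). (GCCAGT)n, over 32 bases, had 0, 0 and 1 counts in F578A and 11, 18 and 9 counts in WT (adjusted p = 0.14). Its ratio of summed counts per library total was 0.0239 (exact 95% interval 0.00059 to 0.141, counting error only). (ATTTTTC)n had 14.6, 9.15 and 4.51 CPM in F578A and 1.24, 0.662 and 0.807 CPM in WT (3.34, adjusted p = 0.226, SE 0.642).

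Abundant simple repeats had small log2 fold changes, more often negative among trinucleotides. (CAG)n, the most abundant name, had 54385, 55834 and 61661 CPM in F578A and 59583, 68818 and 66990 CPM in WT (log2 fold change -0.18, edgeR adjusted p = 0.897, SE 0.0722). The unit CCG with its rotations and complement had 38773, 36619 and 38426 CPM in F578A and 44465, 45817 and 45928 CPM in WT. That is a small difference with a narrow spread (-0.26, adjusted p = 0.124, SE 0.0442). Of 61 trinucleotide names 51 were negative (median -0.11). None had all F578A libraries above all WT libraries and 14 had all below, against 5.09% and 7.22% of all names. These names do not count independently, since rotations and complements of the same unit are separate names, and 6 of the 14 are of CCG. Combined by unit, only CCG and AAG had all F578A libraries below all WT libraries. The other trinucleotide units overlapped. Without replicate 1 of F578A 40 of the 61 were negative, and without replicate 2 of WT 44. With scaling by total counts 36 were negative (median -0.03).

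The direction went with the base composition of the unit. Names made of A and T alone had a median log2 fold change of 0.12 (100 of 141 positive), and those with G or C at up to 1 in 3 bases 0.11 (448 of 696). Above that and up to 50% GC the median was 0.00 (313 of 628), and from there to 2 in 3 bases it was -0.11 (175 of 499). Above 2 in 3 bases it was -0.13 (66 of 217), and for names of G and C alone -0.19 (6 of 19). Those 19 names had a mean of -0.02 and ran from -0.96 to 1.94. Among them, 6 are rotations and complements of the CCG unit, all negative, so that median leans on a single unit. Over the leave-one-out sets, A and T names kept a median between 0.09 and 0.14, and all names above 2 in 3 bases one between -0.20 and -0.11. Scaling by total counts moved these medians to 0.20 and -0.05, with the order kept. G-rich, a low-complexity name, had 8699, 9034 and 8664 CPM in F578A and 10465, 9732 and 9891 CPM in WT (-0.19, edgeR adjusted p = 0.679, SE 0.062). A-rich had 0.04, and 1 of 4 low-complexity names was positive (median -0.14).

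Averaged over the counts on simple repeats, the unit had 50.003%, 49.4% and 50.1% GC in F578A, against 51.3%, 51.4% and 51.6% GC in WT. The difference was -1.57 percentage points and the genotypes did not overlap (exact permutation p = 0.1, the smallest possible, adjusted p = 0.2 over 8 such library measures chosen after the data were seen). In the knockdown libraries the same measure was 48.5%, 53.7% and 47.0% in the Gcn5 knockdown and 49.1%, 53.5% and 49.9% in the w knockdown, so replicates of 1 group there were farther apart than F578A and WT are here. The part of library preparation in the gradient was not tested.

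**Figure D5:**
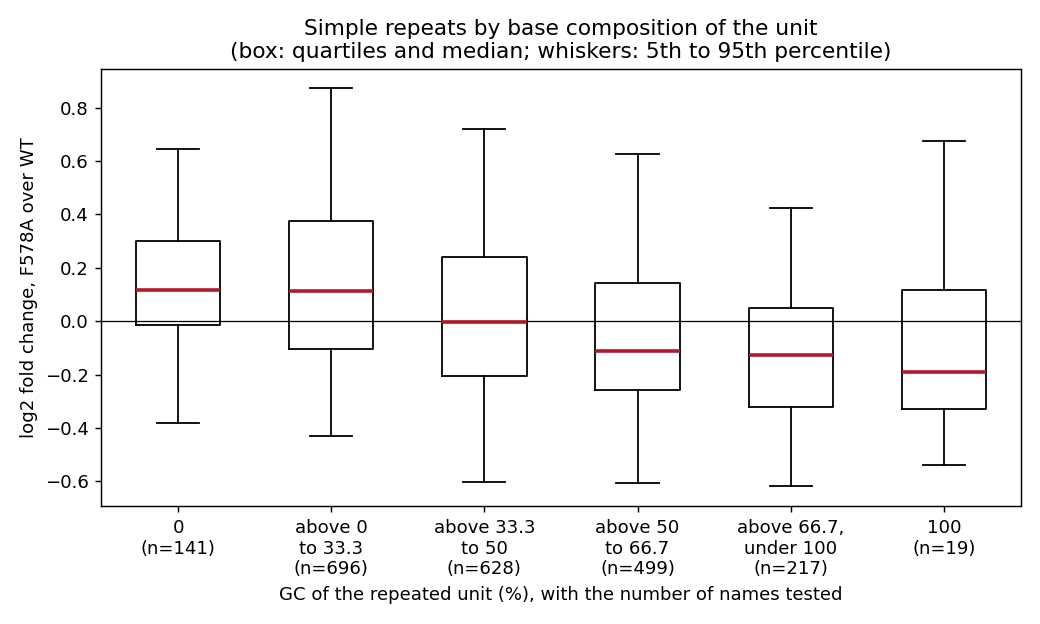
Log2 fold change (F578A over WT) of 2200 simple-repeat names by the GC percent of their unit; red lines are medians, boxes quartiles and whiskers the 5th and 95th percentiles. The median falls from 0.12 for units without G or C to -0.19 for units of G and C alone. In that last group 6 of the 19 names are rotations and complements of CCG.

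The Gcn5 knockdown offers a comparison with another perturbation, of a histone acetyltransferase, and shares no library with F578A or WT. Among 2458 names tested in all 12 libraries, 1 (0.0407%) had effects that differed, Mariner2_DM. ZAM_I-int had 12.3, 12.5 and 16.6 CPM in the Gcn5 knockdown and 10.1, 22.7 and 17.9 CPM in the w knockdown. Its log2 fold change was -0.28 there, against 2.00 in F578A on the same scale. The difference of 2.29 (SE 0.572) did not pass with edgeR (adjusted p = 0.309) and passed with DESeq2 (2.31, adjusted p = 0.0301). FROGGER_I-int had -0.68 in the Gcn5 knockdown and 1.34 in F578A (difference 2.03, adjusted p = 0.619, SE 0.647). After Mariner2_DM the smallest p belonged to (GTGTACT)n and DM412, both at edgeR adjusted p = 0.125. (GTGTACT)n had 0.35 in the Gcn5 knockdown and -2.64 in F578A (difference -2.99, SE 0.603). DM412 had -2.39 and -0.30 in the same order (difference 2.10, SE 0.427). Both differences passed with DESeq2, with no filter and with the replicate block. BURDOCK_LTR was positive in both, with 3.94 in the Gcn5 knockdown and 2.16 in F578A, and Gypsy12_LTR with 1.20 and 1.37 in the same order, with adjusted p of 0.997 and 1.0 for the differences. At an unadjusted p under 0.05, 99 of the 2458 names had a higher change in F578A and 35 a lower one. A share of 0.05 would fall under that threshold with no difference at all.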

How the data were processed

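The deposited RNA tables hold raw counts per repeat name and the summed annotated length of each name, per the file headers. The submitters' processing notes name featureCounts 1.6.5, Trim Galore 0.6.0 and Bowtie2 2.3.5.1 without their roles, and the builds dm6 and BDGP6. The treatment of multi-mapping reads, the use of strand and the repeat annotation are not given in the sources used here. Reads shared by related elements could therefore be counted for either. The peak lists were not used.

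From the deposited counts, edgeR 4.0.16 in R 4.3.3 compared 3 F578A with 3 WT libraries: TMM scaling on all repeat counts, filterByExpr, the quasi-likelihood test, Benjamini-Hochberg adjustment and a threshold of 0.05. The tested names held at least 99.7% of the counts of each library. The SE is the log2 fold change divided by the square root of F. DESeq2 1.42.0 served as an alternative, with RLE and total-count scaling, no filter, transposable elements alone, no rRNA, all 12 libraries, a replicate block and each library left out. Procedures were tested on simulated data. Groups and lists came from labels and name starts. The members and lists were chosen with earlier results of these data known. Named were every name called, the 10 transposable-element and 6 simple names of smallest p, their other part, the most abundant name and the one of smallest p in each list, and the 5 combined elements of smallest p. Further names were chosen after their values were seen: TIRANT_I-int, QUASIMODO_I-int, Gypsy_I-int, IDEFIX_I-int, NOMAD_I-int, TAHRE, TART_B1 and Copia_I-int. So were ACCORD_I-int, ACCORD_LTR, TLD2, DMLTR5, DM412 and the trinucleotide and GC groups. Replicates differed beyond counting error, with chi-square per degree of freedom of at least 9.06.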

Additional observations from a re-analysis of the deposited data

Results flagged for a closer look

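Mariner2_DM, a mariner-family DNA transposon, was the 1 name whose change differed between F578A and the Gcn5 knockdown. It had 32.0, 24.6 and 17.2 CPM in F578A and 34.7, 15.0 and 20.0 CPM in WT, scaled over all 12 libraries, and the genotypes overlapped. It had 234, 241 and 291 CPM in the Gcn5 knockdown and 18.1, 22.2 and 15.9 CPM in the w knockdown, where all knockdown libraries lay far above the control. The log2 fold changes were 0.09 in F578A and 3.77 in the Gcn5 knockdown, a difference of -3.69 (SE 0.516, edgeR adjusted p = 0.0054, a test of the interaction over 12 libraries). Earlier results of these data had already shown this difference.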

How the results depend on the processing

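ROVER-I_DM passed under all 14 alternatives (log2 fold change 2.80 to 3.17, highest edgeR adjusted p = 0.003). The count of names called, 1 in the fit reported, was 30 with no filter on low counts, 29 with DESeq2, 10 with transposable elements alone (8 higher, 2 lower), 3 with all 12 libraries and 7 with a replicate block. Leaving out each library gave 1 to 3, with 3 without replicate 3 of F578A. Combined elements and classes called numbered 5 with no filter, 8 with DESeq2, 7 with transposable elements alone and 5 with the replicate block, and 1 to 3 over the leave-one-out fits, again 3 without replicate 3 of F578A. The names whose effect differed between F578A and the Gcn5 knockdown numbered 8 with no filter, 6 with DESeq2, 4 with the replicate block and 1 to 2 with a library left out. The deviation of each library from the mean of its own genotype was correlated between F578A and WT libraries. Same-numbered libraries gave 0.701, -0.109 and -0.039, and replicate 3 of F578A had its highest value with replicate 2 of WT (0.741). Deviations within a genotype depend on each other, so negative values arise by construction. These values cannot settle whether the replicate numbers pair the samples. The difference in transposable-element share was 0.971 percentage points of all counts, and -0.0494 of the counts left without simple repeats, low-complexity repeats and rRNA. Almost only transposable elements remain there, so that share cannot show a difference.

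Log2 fold changes near 0 turned their sign. Fitting transposable elements alone lowers them together, to a median of 0.006 in place of 0.284, so values near 0 turn by construction. These were DNAREP1_DM (-0.0448), DMCR1A (-0.217), POGO (-0.0058), ROO_I-int (-0.267) and BLOOD_I-int (-0.0783), and with total-count scaling BLASTOPIA_I-int (0.0462). With a library left out, BLASTOPIA_I-int ran from -0.429 to 0.307, MDG3_LTR from -0.452 to 0.0666, HMSBEAGLE_I-int from -0.235 to 0.0267, DMCR1A from -0.0918 to 0.144, ROO_I-int from -0.0036 to 0.0562 and A-rich from -0.0058 to 0.121. The cause was not tested. List summaries under other scalings and with libraries left out were added after the data were seen. Names with few counts are limited by depth, and those below the filter were not tested.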
